A study of Sus scrofa domesticus with 4 samples.

Results

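Cytokines are small secreted proteins that carry signals between cells. Interleukins, colony-stimulating factors and ligands of the TNF superfamily act through receptors that feed the JAK-STAT and NF-kB pathways, while chemokines act through G protein-coupled receptors and draw leukocytes along gradients. In the anterior pituitary, folliculostellate cells, macrophages and endothelial cells are known sources of cytokines, and cytokines of the gp130 group are known to act on hormone-producing cells.

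The genes described here are interleukins, CC and CXC chemokines, TNF superfamily ligands, colony-stimulating factors and LIF, chosen by gene symbol. Receptor genes with interleukin, CCR, CXCR or TNF superfamily symbols were chosen in the same way. Receptor genes whose symbols begin with CSF, LIF or ACKR were not matched and are not covered. IL1A, IL6 and CXCL8 were left out by the same rule. On the array 98 probes matched 72 such genes. Of these genes, 45 were well above background in at least 1 channel on at least 3 of 4 arrays, and all 45 were tested, among 1956 tested genes with a name. All cells came from anterior pituitary lobes of mature Large White x Polish Landrace gilts, 7 to 8 months old and in the mid-luteal phase (days 10 to 12) by the protocol, although 1 label tag calls these days a period of pregnancy. After 48 h of preculture the cells spent 24 h in medium without serum. During these 24 h treated cultures held 10 µg/ml of recombinant human adiponectin, which fat cells secrete, and control cultures held none. Each of 4 arrays carried RNA of both groups, the treated RNA in Cy5 on arrays 1 and 3 and in Cy3 on arrays 2 and 4. Which gilt is on which array is not stated, so the intervals rest on the spread between these arrays. For each gene limma draws that spread towards a value shared by all tested probes. The cultures are mixed primary cells, in which fewer cells of a type and less RNA per cell cannot be told apart.

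Of the 12 listed pituitary markers with a probe, 11 were tested, among them the hormone genes GH1, PRL and POMC, and CGA was not. Of the markers with a probe, 4 of 6 were tested for macrophages and 3 of 9 for lymphocytes, whose lists held 12 and 14 genes. All those with a probe were tested for endothelial cells (3), fibroblasts and pericytes (3), folliculostellate cells (2) and red blood cells (1). Their lists held 9, 9, 8 and 6 genes. The lymphocyte markers CD2, CD3D, CD3G, CD4 and CD8A and the macrophage markers CD163 and SPI1 had probes that were not tested. A probe goes untested when it is dim or when fewer than 3 arrays have values. Untested markers, CGA among them, are therefore not shown to be absent. Median fitted ratios of all these marker lists ran from -0.07 for pituitary hormone cells to 0.04 for red blood cells, and none of their genes passed the threshold.

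No cytokine or receptor gene differed between adiponectin-treated and control cells past the threshold (adjusted p under 0.05 in the limma fit). The tally stood at 0 of 45 genes, where 0% of 25918 tested probes were called, and the smallest adjusted p among the 45 was 0.9999. Before adjustment, 2 lower genes (CSF3 and CXCL2) and 1 higher gene (IL16) had an unadjusted p under 0.05. The same holds for 0.971% (lower) and 1.12% (higher) of all named genes. Fitted log2 ratios of treated over control cells ran from -0.21 for CXCL2 to 0.18 for IL16. Of the 45 genes, 22 lay below 0 and 23 above, with a median of 0.0018; over all named genes 46.4% lay below 0, with a median of 0.006. With median centring of the arrays in place of loess, 15 of the 45 lay below 0 (33.3%, against 23.9% of all named genes).

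For 45 of 45 genes both ends of the 95% interval were smaller than a 1.5-fold difference, and for 35 they were smaller than a 1.2-fold one. The median half-width was 0.16. These intervals hold for ratios with an offset of 50 added to both channels, which draws dim probes towards 0. The counts rested on all 4 arrays. Without array 2, 2 of 44 genes passed the threshold, CXCL11 at -0.34 and CXCL9 at -0.28, beside 720 of 24547 probes. Without array 4 it was 1 of 44, IL16 at 0.27, beside 828 of 24061 probes. In both of these fits p followed the size of the ratio alone, so it does not measure a gene's own spread. With 4 arrays the intervals of CXCL11 and CXCL9 were wide, -0.41 to 0.18 and -0.38 to 0.19. Without array 1 or 3 no member was called, among 0 and 1 probes.

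**Figure D1:**
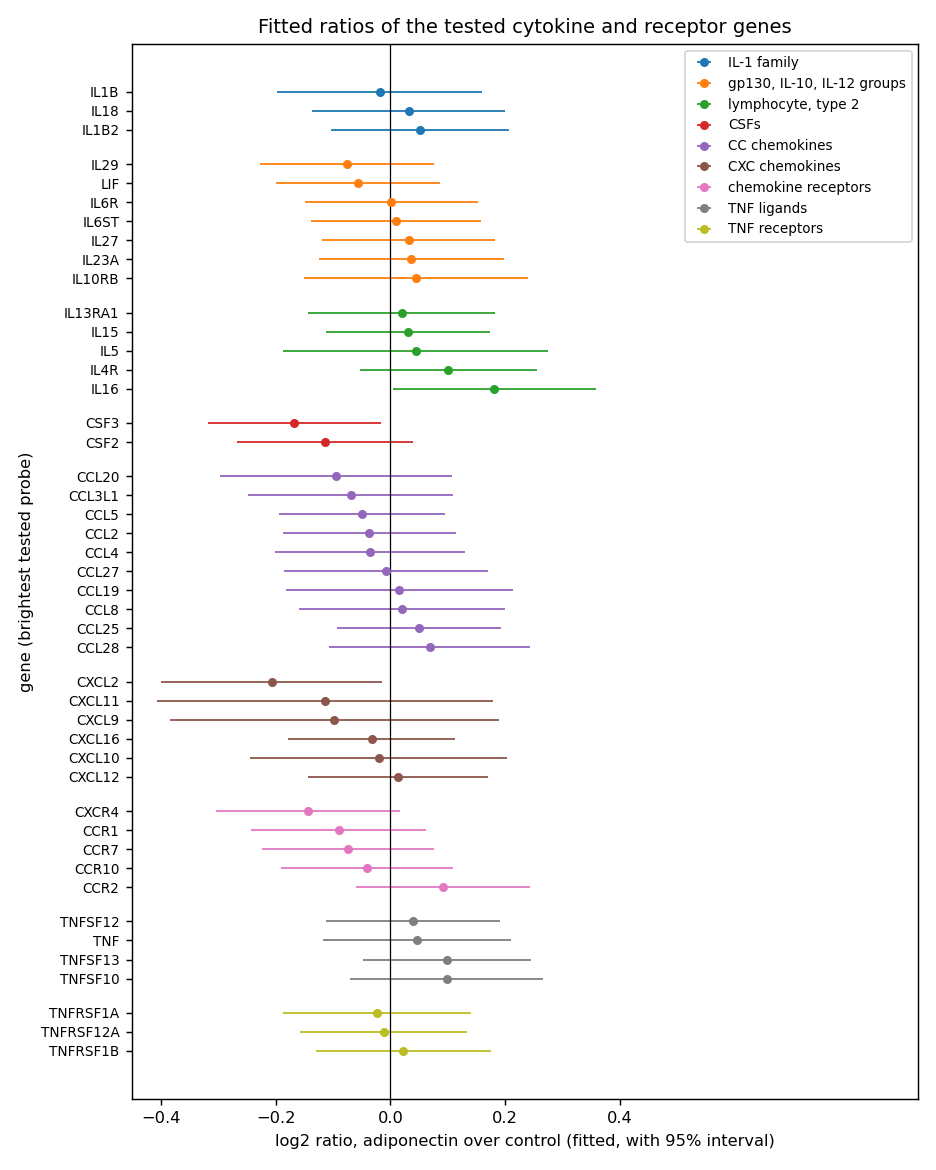
Fitted log2 ratios of adiponectin-treated over control cells (x axis) with 95% intervals for the 45 tested genes (y axis), coloured by group. The points run from -0.21 for CXCL2 to 0.18 for IL16, and only the intervals of CXCL2, CSF3 and IL16 leave out 0.

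The colony-stimulating factors, growth factors of myeloid cells, had a group median of -0.14 for 2 genes. CSF3, which encodes granulocyte colony-stimulating factor, had ratios of 0.04, -0.25, -0.11 and -0.35 on arrays 1 to 4. It was lower in treated cells on 3 of 4 arrays, and the fitted ratio was -0.17 (95% interval -0.32 to -0.02). Its second probe had 0.05, -0.13, -0.12 and -0.10, with a fitted ratio of -0.07 (-0.22 to 0.08). CSF2, which encodes granulocyte-macrophage colony-stimulating factor, had 0.01, -0.12, -0.03 and -0.32, fitted at -0.11 (-0.27 to 0.04). All 3 probes were above 0 on array 1 and below 0 on the others. With 1 array left out, CSF3 ran from -0.21 to -0.13 and CSF2 from -0.16 to -0.06.

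Of the 6 CXC chemokine genes, all tested, 5 had fitted ratios below 0 (4 by the series matrix, 3 if arrays were centred on the median). Without array 4 the direction turned, with 2 below 0 and a group median of 0.07 in place of -0.07. CXCL2, a neutrophil-attracting chemokine, had ratios of -0.54, -0.63 and 0.17 on arrays 1, 3 and 4. Its spot on array 2 was left out for uneven local background, so its fitted ratio of -0.21 (-0.40 to -0.01) comes from 3 arrays. Its sign thus followed the dye on these arrays. The second probe had values on all arrays, -0.35, 0.18, -0.48 and -0.24, and a fitted ratio of -0.22 (-0.41 to -0.03). With median centring the first probe had -0.01. CXCL12, a ligand of CXCR4 that retains cells in tissues, had -0.27, 0.46, -0.44 and 0.30. These were below 0 on both arrays with treated RNA in Cy5 and above 0 on both with it in Cy3, and the fitted ratio was 0.01 (-0.14 to 0.17). CXCL16, which exists as a membrane-bound and a soluble chemokine, had a fitted ratio of -0.03.

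The interferon-induced chemokine genes CXCL9, CXCL10 and CXCL11 encode ligands of CXCR3 and lie next to each other in the RefSeq gene order. CXCL10 had -0.29, 0.21, 0.19 and -0.19 on arrays 1 to 4, fitted at -0.02 (-0.24 to 0.20), and its second probe was fitted at -0.06. CXCL9 had -0.44, 0.36, 0.07 and -0.37, fitted at -0.10 (-0.38 to 0.19). CXCL11 had -0.30, 0.40, -0.07 and -0.49, fitted at -0.11 (-0.41 to 0.18). All 3 were below 0 on arrays 1 and 4 and above 0 on array 2. Their intervals are among the widest of the 45 genes. The ratio of CXCL10 was 0.10 without array 1, 0.08 without array 4 and -0.14 without array 3.

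The CC chemokine genes were split, with 6 of 10 tested below 0 (5 of 10 with the scanner software's log ratio and 3 of 10 with median centring). Without array 4 it was 2 of 9 and without array 2 it was 7 of 9. CCL2, the main chemokine for monocytes, had ratios of 0.15, -0.10, 0.07 and -0.26 on arrays 1 to 4 and a fitted ratio of -0.04 (-0.19 to 0.11). Scanner-processed signals of this probe ran from 17223 to 29509 in treated and from 16083 to 30290 in control cells. CCL5, which attracts T cells and monocytes, had -0.10, -0.04, -0.13 and 0.07, fitted at -0.05 (-0.19 to 0.10). CCL20, the ligand of CCR6, had 0.07, 0.10, -0.33 and -0.22, fitted at -0.10 (-0.30 to 0.11). The first 2 arrays were above 0 and the other two below. CCL3L1 and CCL4, macrophage inflammatory proteins whose genes are neighbours, were fitted at -0.07 and -0.04, and CCL8, a neighbour of CCL2, at 0.02. The remaining ligands were CCL27 at -0.01, CCL19 at 0.02 (3 arrays), CCL25 at 0.05 and CCL28 at 0.07. CCL3L1 belongs to a family of close copies, so its probe may also read related transcripts.

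Among the chemokine receptors, 4 of 5 tested genes had fitted ratios below 0 (3 of 5 with normexp fitted on all spots). CXCR4, the receptor of CXCL12, had 0.08, -0.18, -0.12 and -0.36 on arrays 1 to 4. It was lower in treated cells on 3 of 4 arrays, with a fitted ratio of -0.14 (-0.30 to 0.02). In scanner-processed signal, CXCR4 was at 2004, 2022, 2804 and 2359 in treated cells and at 1889, 2285, 3035 and 3048 in control cells, and the 2 ranges overlap. CCR2, the receptor of CCL2, had 0.03, 0.06, 0.01 and 0.25, fitted at 0.09 (-0.06 to 0.24). It was the only 1 of the 45 genes above 0 on all 4 arrays, where 3.41% of named genes with 4 values were, and 0 members were below 0 on all 4 arrays, against 1.46%. CCR1, a receptor of CCL3 and CCL5, had -0.24, 0.14, -0.21 and -0.05, fitted at -0.09 (-0.24 to 0.06), with its second probe at -0.13. It was -0.02 by the scanner's log ratio and -0.04 without array 4. CCR7 and CCR10 were fitted at -0.07 and -0.04. CCR1 and CCR2 have other receptor genes as neighbours, and CCR3, CCR9 and CXCR6 among them were not measured.

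All 4 tested TNF superfamily ligands had fitted ratios above 0 in treated cells with 4 arrays and the labelled dyes. TNF itself, a macrophage cytokine, had 0.02, -0.10, 0.09 and 0.18 on arrays 1 to 4, fitted at 0.05 (-0.12 to 0.21), and was at -0.02 without array 4. TNFSF13, also called APRIL and a survival factor of plasma cells, had 0.24, 0.03, 0.21 and -0.09, fitted at 0.10 (-0.05 to 0.24). TNFSF12, also called TWEAK and a neighbour of TNFSF13, was at 0.04. TNFSF10, also called TRAIL and a ligand of death receptors, had -0.15, 0.12, 0.04 and 0.38, fitted at 0.10 (-0.07 to 0.27). It was 0.29 by the scanner's log ratio and 0.03 without array 4. Its second probe was fitted at -0.06, so the probes of TNFSF10 differ in sign.

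By their brightest probes the TNF receptors lay nearer to 0 than the TNF ligands. With probes averaged, TNFRSF1A and TNF were both at 0.05. TNFRSF1A, the main receptor of TNF, had 0.58, -0.72, 0.48 and -0.44 on arrays 1 to 4. It was above 0 with treated RNA in Cy5 and below 0 with it in Cy3, which the fit assigns to a dye term of 0.56, and the fitted ratio was -0.02 (-0.19 to 0.14). Its other probes had dye terms of -0.06 and -0.08 and fitted ratios of 0.02 and 0.14 (-0.04 to 0.31), so the large dye term belongs to a single probe. TNFRSF1B, the second receptor of TNF, had -0.30, 0.20, -0.16 and 0.34, fitted at 0.02 (-0.13 to 0.17). TNFRSF12A, the receptor of TNFSF12, was at -0.01.

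In the interleukin-1 family, IL1B, a main inflammatory cytokine, had -0.03, 0.13, 0.06 and -0.25 on arrays 1 to 4, with a fitted ratio of -0.02 (-0.20 to 0.16). IL1B2, a close copy of IL1B whose transcripts may bind the same probes, was at 0.05. IL18, which induces interferon gamma, had -0.12, 0.23, 0.06 and -0.04 and a fitted ratio of 0.03 (-0.14 to 0.20), with its second probe at 0.07. No gene of this family kept 1 sign across the arrays.

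Of the gp130, IL-10 and IL-12 groups, 7 of 13 genes were tested and their fitted ratios ran from -0.08 to 0.04. LIF, a gp130 cytokine known to act on corticotrophs, had -0.22, 0.07, -0.17 and 0.09, fitted at -0.06 (-0.20 to 0.09). IL6ST, which encodes gp130 itself, had 0.20, -0.21, 0.12 and -0.07, fitted at 0.01 (-0.14 to 0.16), with its second probe at -0.02. IL6R, the receptor that binds interleukin-6, had 0.11, 0.02, -0.02 and -0.10 and a fitted ratio of 0.0018 (-0.15 to 0.15). IL10RB, a shared receptor chain of the interleukin-10 family, had 0.14, -0.34, 0.25 and 0.13, fitted at 0.04 (-0.15 to 0.24). IL29, a lambda interferon gene, was at -0.08, and IL27 and IL23A were at 0.03 and 0.04.

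All 5 tested genes of the lymphocyte and type 2 interleukins lay above 0 (3 of 5 with normexp fitted on all spots, 4 of 5 when probes were averaged, 3 of 5 without array 2, 4 of 5 without array 3 and 2 of 5 with treated RNA read as Cy5). IL16, a CD4 ligand, had 0.21, 0.37, 0.15 and -0.005 on arrays 1 to 4, and the fitted ratio was 0.18 (1.13-fold, 0.0038 to 0.36). It was 0.09 without array 2, 0.27 without array 4 and 0.09 with normexp fitted on all spots. Scanner-processed signals of IL16 were 51.5, 112, 62.2 and 51.3 in treated and 40.1, 81.1, 58.2 and 48.1 in control cells. IL4R, the receptor chain of interleukins 4 and 13, had 0.09, 0.14, -0.08 and 0.25, fitted at 0.10 (-0.05 to 0.25). IL13RA1, its partner chain, had -0.25, 0.21, 0.01 and 0.11, fitted at 0.02 (-0.14 to 0.18). IL15, a survival factor of natural killer cells, had 0.18, -0.10, 0.12 and -0.08, fitted at 0.03 (-0.11 to 0.17), and its second probe was at -0.06. IL5 was at 0.04, while its neighbours IL4 and IL13 were not measured.

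**Figure D2:**
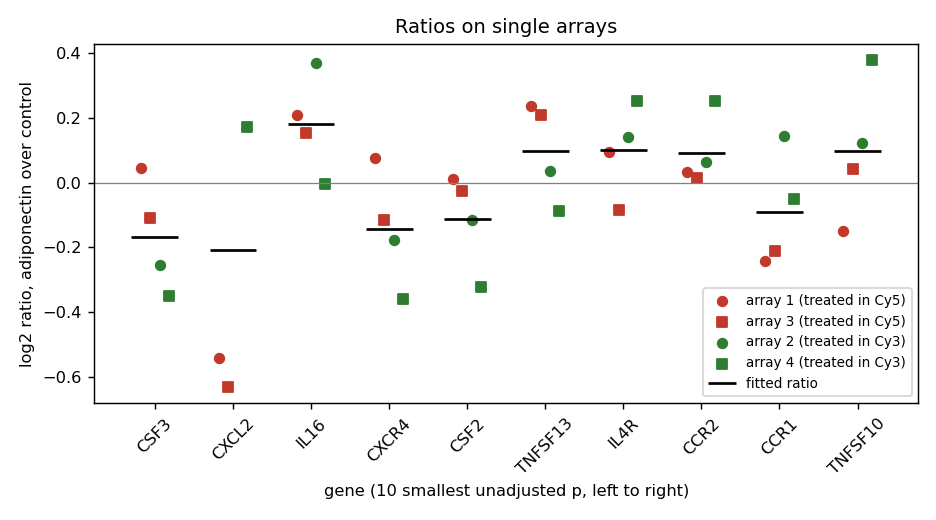
Log2 ratios of treated over control cells on each array (points, red with treated RNA in Cy5, green in Cy3) and the fitted ratio (bar) for the 10 genes with the smallest unadjusted p. CCR2 alone lies above 0 on all arrays, and CXCL2 has values of -0.54, -0.63 and 0.17 on its 3 arrays.

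The remaining 27 genes were not well above background on 3 arrays and had no tested ratio. They included the chemokines CCL21, CCL24 and CCL26, the receptors CCR3, CCR9 and CXCR6, and the TNF ligands TNFSF4, TNFSF8 and TNFSF13B. Among interleukins they were IL2, IL4, IL7, IL9, IL10, IL12A, IL12B, IL13, IL17A and IL21. Among interleukin receptors they were IL2RA, IL2RG, IL7R, IL12RB1, IL12RB2, IL18R1 and IL23R. CCL24, CXCR6, IL10, IL17A and IL2RG were well above background on 2 arrays each, and the highest scanner-processed signal of any of the 27 genes was 41.4.

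The dye term exceeded the adiponectin term for most genes. The median size was 0.12 for the dye term and 0.04 for the adiponectin term, which was the larger of the pair in 12 of 45 genes (26.7%, against 26.2% of named genes). The mean ratio with treated RNA in Cy5 and that with it in Cy3 had opposite signs in 33 genes (73.3%, against 73.8% of named genes). The labelling protocol is worded as if treated RNA were always Cy5. The deposited treated over control values follow the channel labels instead. On each array they correlate at 0.91 to 0.98 with the scanner's ratio in the direction of those labels. With treated RNA read as Cy5 on every array, 5 of 45 genes passed the threshold, beside 2331 of 25918 tested probes. These genes were TNFRSF1A at 0.56, CXCL12 at -0.37, IL23A at 0.27, TNFRSF1B at -0.25 and CXCL2 at -0.45 (adjusted p from 0.00552 to 0.0387 by limma). Dye and treatment then cannot be told apart. Several tested probes were available for 12 genes, and in 8 of them (66.7%) all fitted ratios had the same sign, against 55.4% of 980 named genes.

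For most of these genes, as for most named genes, levels differed more between arrays than between treatments. The level on an array is the mean log2 signal of both channels after quantile scaling between arrays, and a range of 1 is a 2-fold difference between the highest and the lowest array. Of the 43 genes with values on all arrays, 10 had a range of at least 1 (23.3%), where 8.39% of named genes did. The median range was 0.57, against 0.39 for all named genes. The median of the largest treated over control ratio on any array was 0.26 in size, and the range exceeded that ratio in 34 of 43 genes (79.1%, against 72.5% of named genes). These 10 genes were CSF2, CCL3L1, CCL20, CCL4, CCL8, IL1B, CXCL10, CXCL9, CSF3 and CCL5. The count rested on array 1: without it 2 genes were left, CSF2 and CCL20, against 6.33% of named genes. It was 8, 10 and 8 without array 2, 3 or 4 (6%, 6.92% and 5.49% of named genes). The count was 14 without scaling between arrays and 18 with the scanner software's processed signals (14.9% and 16.3% of named genes). The labels do not say which gilt, culture or labelling belongs to an array, so these cannot be told apart.

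**Figure D3:**
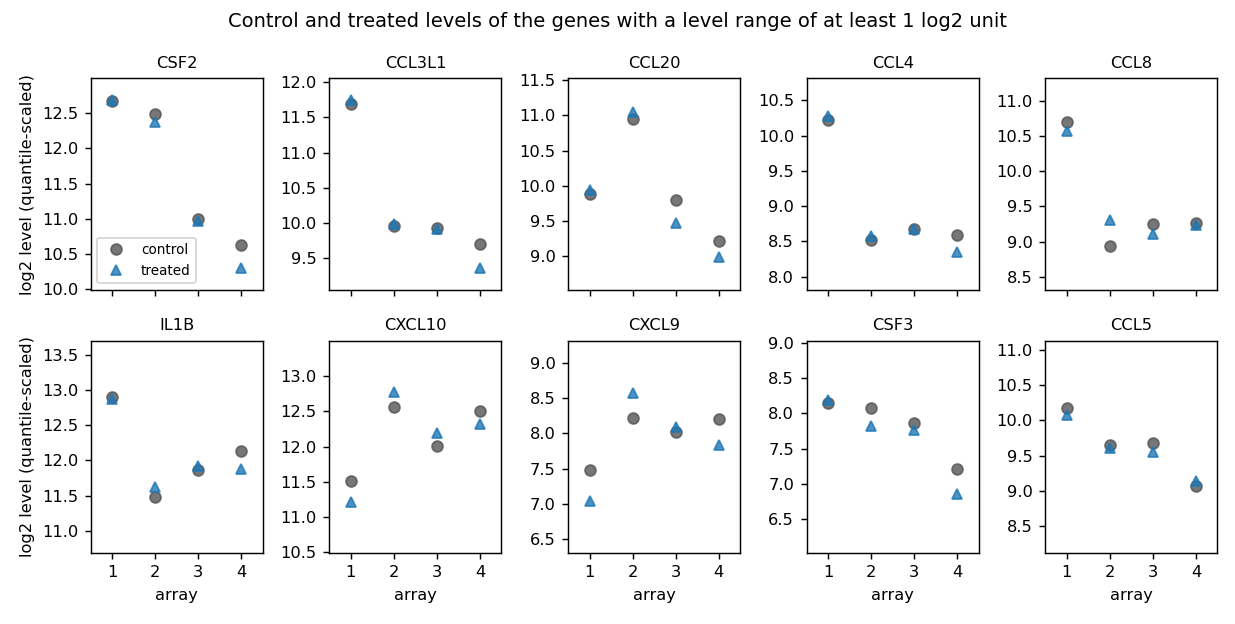
Log2 levels (y axis) of control and treated cells on arrays 1 to 4 (x axis) for the 10 genes with a level range of at least 1; each panel spans 3 log2 units. Control and treated levels lie close together on each array, while the arrays lie up to 2.21 apart for CSF2.

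The arrays differed in distinct ways for different genes. CSF2 had control levels of 12.7, 12.5, 11.0 and 10.6 on arrays 1 to 4 and treated levels of 12.7, 12.4, 11.0 and 10.3. It was thus high on arrays 1 and 2 in both channels, with a range of 2.21 (4.64-fold). The CXCL2 probe valued on all arrays was also high on arrays 1 and 2, at 0.63, 1.16, -0.63 and -1.16 relative to its mean, a range of 2.31. CCL3L1 had control levels of 11.7, 9.96, 9.93 and 9.71 and treated levels of 11.7, 9.99, 9.92 and 9.36, highest on array 1. Its neighbour CCL4 was at 1.27, -0.44, -0.31 and -0.52 relative to its mean, and CCL8 at 1.09, -0.42, -0.37 and -0.30. IL1B, at 0.80, -0.53, -0.19 and -0.08, was also highest there, as were both probes of IL1B2. CCL20 was highest on array 2, at 1.09 above its mean, and lowest on array 4, at -0.81.

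The interferon-induced chemokines had the opposite pattern on array 1. Relative to its mean, CXCL10 was at -0.77, 0.53, -0.03 and 0.28 on arrays 1 to 4, and its second probe at -0.76, 0.56, 0.09 and 0.12. CXCL9 was at -0.67, 0.46, 0.12 and 0.09, and CXCL11 at -0.69, 0.22, 0.19 and 0.29. All 3 were lowest on array 1 in both channels. CSF3 was at 0.43, 0.21, 0.07 and -0.71, lowest on array 4, with a range of 1.13 for this probe and 1.18 for the other. Among the receptors, TNFRSF1B, TNFRSF12A and CCR2 had ranges of 0.13, 0.11 and 0.08. The 3 probes of TNFRSF1A differed, with 0.16 for the one with the large dye term and 0.49 and 0.59 for the others. CCR7, a receptor that guides lymphocytes and dendritic cells to lymph nodes, had a range of 0.96.

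**Figure D4:**
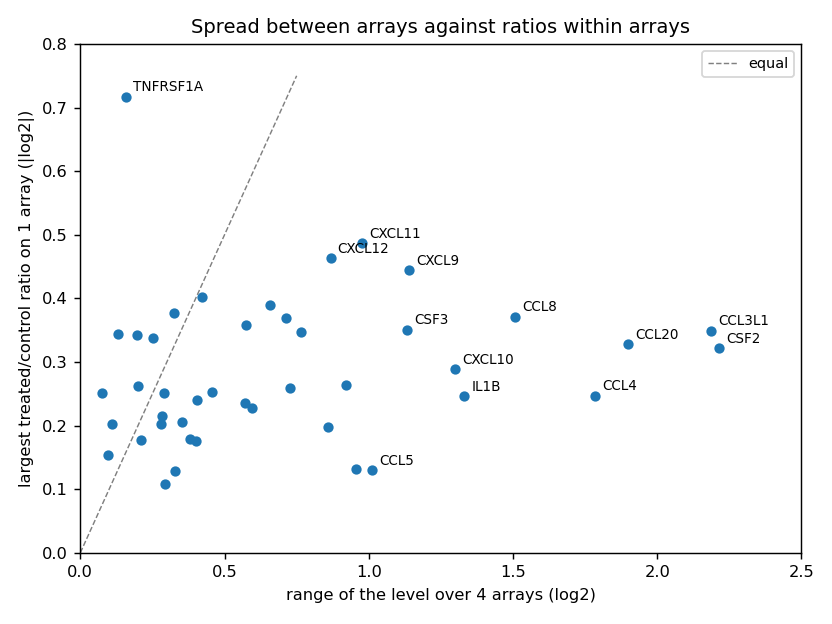
Range of the level over 4 arrays (x axis, log2) against the largest treated over control ratio on 1 array (y axis, size on the log2 scale) for the 43 genes with 4 values. In 34 of 43 genes the range is the larger, and TNFRSF1A stands apart with a ratio of 0.72 in size and a range of 0.16.

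Markers of other cell types were set beside these levels. The 3 tested endothelial markers had a median of 0.74 above their means on array 1 and of 0.17, -0.40 and -0.53 on arrays 2 to 4. CDH5, PECAM1 and ENG had ranges of 1.86, 1.27 and 0.75, and were at -0.45, -0.40 and 0.26 on array 3. Their summed processed signal ran from 289 to 773 in treated and from 291 to 845 in control cells. The 4 macrophage markers had medians of -0.05, -0.16, 0.02 and 0.14, with AIF1 at 0.30, -0.62, -0.02 and 0.34. CD14, CD86 and LYZ were at -0.09, -0.06 and -0.05 on array 1 and at -0.19, 0.10 and -0.14 on array 2. The summed signal of all 4 ran from 357 to 622 in treated and from 314 to 594 in control cells. The 3 lymphocyte markers had medians between -0.02 and 0.04 and summed signals of 171 to 216 and 167 to 224. Of these, CD79A was at 0.44, -0.24, 0.18 and -0.38 on arrays 1 to 4, a range of 0.83. CD3E and LCK each had a range of 0.13. The 2 folliculostellate markers differed between arrays in different ways. ANXA1 was at 0.29, 0.07, -0.05 and -0.31 on arrays 1 to 4, and CD9 at -0.29, -0.06, 0.285 and 0.06. For these 2 markers the summed signals were 59401 to 108772 in treated and 69340 to 97157 in control cells. For the 3 markers of fibroblasts and pericytes they were 15661 to 21294 and 12845 to 21173. The part of these cells in the differences between arrays was not tested.

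The pathways downstream of these receptors were counted from lists of their genes. Of the 12 tested genes of JAK-STAT and gp130 signalling, 0 passed the threshold, 5 lay below 0 and 7 above, with a median of 0.0023. The feedback inhibitor SOCS2, at 0.19 (0.02 to 0.35), was the only 1 with an unadjusted p under 0.05. The inhibitor SOCS3 was at -0.05 and the transcription factor STAT3 at 0.01. Of the 13 tested genes of NF-kB, TNF and IL-1 signalling, 0 passed, 6 lay below 0 and 7 above, with a median of 0.02. They included NFKB1, an NF-kB subunit, at -0.05, its inhibitor NFKBIA at 0.04 and the adaptor MYD88 at 0.02 (3 arrays). Of the 8 tested genes of the Toll-like receptor list, 0 passed, 3 lay below 0 and 5 above, with a median of 0.01.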

How the data were processed

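Two-colour Agilent arrays (design 026440) of 4 samples were quantified with Agilent Feature Extraction 10.7.3.1, per the file headers. The deposited files give each spot's intensity in both channels and the scanner's log10 ratio (red over green). Values in the deposited matrix were log2 of treated over control, equal to the scanner's processed signals within 0.01 for 99.93% of probes on each array. Batches of culture or labelling are not given in the sources used here.

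Median signals were background-corrected by normexp (offset 50) without spots of uneven local background (939 to 1350 of 43803 per array) and without 29 to 45 outlier-flagged spots, then loess-normalized within arrays. A probe was tested if well above background in the treated or the control channel on at least 3 arrays, with values on at least 3; 4 probes of these genes failed the second condition only. Tests used limma 3.58.1 in R 4.3.3 with a dye and a treatment term, two-sided, Benjamini-Hochberg adjusted over 25918 probes, and were tested on simulated data. Between 25097 and 29738 probes per group and array were well above background, and the number of arrays limits the precision. No spot was saturated.

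Accessions without version were named through RefSeq of Sscrofa11.1 (5578 of 43603 probes), used for names and gene order (neighbours at most 3 places apart). The brightest tested probe stood for a gene. Array values and intervals are given for the 10 smallest p and a list of ligands and receptors. Members and lists were chosen with earlier results of these data known, and level ranges were added after the signals were seen. Values for CXCL9, CXCL11 and CCL20 on single arrays were added after they were seen.
Alternatives were other backgrounds, normalizations, filters, dye readings and probe rules, and leaving out each array. Some genes of these lists are not reported here.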

Additional observations from a re-analysis of the deposited data

Results flagged for a closer look

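In the ratio of 1 of 43 genes and in the level of 5 of 43, 1 array lay far from the others. For independent values with the same spread about 1 in 20 (2.1 of 43) would be flagged. The ratios still hold the dye term, which changes sign with the dye, and most flagged levels share array 1. Neither count can therefore be set against that number. The ratio of IL5 was -0.40 on array 4 (others 0.15 to 0.25) for its brightest probe. Its second probe had -0.28, 0.39, -0.10 and 0.01 on arrays 1 to 4, so array 4 did not stand out there. On array 1, the log2 level was 10.3 for CCL4 (others 8.47 to 8.68), 10.6 for CCL8 (others 9.12 to 9.25), 7.35 for IL27 (others 7.07 to 7.11) and 6.84 for CXCL11 (others 7.72 to 7.82). On array 2, that of CCR1 was 6.76 (others 7.10 to 7.16).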

How the results depend on the processing

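Under the scanner software's log ratio, the series matrix, an offset of 0, median centring, no dye term, both dim-probe filters and normexp on all spots, 0 probes and 0 of these genes passed the threshold. With treated RNA read as Cy5 on every array, 2331 of 25918 probes and 5 of 45 genes did. Leaving out 1 array gave 0 to 828 probes (of 23995 to 24547) and 0 to 2 genes (of 44 or 45). Without a filter 34 of 72 genes lay below 0 (47.2%, against 46.4% of all named genes). The genes with a level range of at least 1 numbered 18 from processed signals (against 16.3% of named genes). With 1 array left out they numbered 2 to 10 (against 5.49% to 6.92% of named genes).

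With median centring TNFRSF1A was at 0.0586, IL1B at 0.0569, CXCL10 at 0.0378, CCL2 at 0.0618 and CCL5 at 0.0026. IL6R was at -0.0496 by the scanner's log ratio and -0.0496 by the matrix. With probes averaged, TNFRSF1A was at 0.0462, IL6ST at -0.0034 and IL15 at -0.0134. With normexp on all spots TNFRSF1A was at 0.0012, TNFRSF1B at -0.0227, IL6R at -0.0032, IL13RA1 at -0.0295, CXCL12 at -0.0952 and CCL2 at 0.0088. Under the Cy5 reading CSF3 was at 0.1351, IL16 at -0.0011, CXCR4 at 0.1237, CSF2 at 0.1056, IL4R at -0.0954, CCR2 at -0.0671, TNFSF10 at -0.152, TNFRSF1A at 0.5561, TNFRSF1B at -0.2491, IL1B at 0.0377, IL18 at -0.0601, IL13RA1 at -0.1404, CXCL12 at -0.3701 and CCL2 at 0.1439.

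With 1 array left out, the ratio ran from -0.0237 to 0.1166 for TNF, -0.0921 to 0.0459 for TNFRSF1A, -0.014 to 0.0584 for TNFRSF1B, -0.1135 to 0.0759 for IL1B, -0.0307 to 0.0343 for IL6R and -0.0242 to 0.0428 for IL6ST. It ran from -0.0715 to 0.161 for IL10RB, -0.0355 to 0.0996 for IL18, -0.0458 to 0.0851 for IL13RA1, -0.1401 to 0.0988 for CXCL10, -0.0299 to 0.0556 for CXCL12 and -0.0782 to 0.0047 for CCL2. The cause of these turns was not tested. With 4 arrays and dim probes drawn towards 0, small differences of weakly expressed genes could not be measured.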
